A study of Mus musculus with 6 samples.

Results

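The AP-1 and BATF transcription factors described here are 9 genes of the basic leucine zipper class, taken by symbol from a written list. They are the Jun family (*Jun*, *Junb*, *Jund*), the Fos family (*Fos*, *Fosb*, *Fosl1*, *Fosl2*) and the BATF family (*Batf*, *Batf3*). All 9 were found among the 35602 genes of the deposited count table and among the 34714 genes listed for the other pair of libraries. AP-1 is a dimer: Jun proteins pair among themselves or with Fos proteins, whereas Fos proteins bind DNA only together with a Jun partner. BATF proteins lack an activation domain of their own, pair with Jun proteins, and bind next to IRF4 or IRF8 at composite DNA elements. In T cells, signals from the antigen receptor and CD28 reach AP-1 through MAP kinases, AP-1 acts with NFAT at cytokine genes, and BATF with IRF4 is required for several helper T cell fates.

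Splenic CD4+ T cells of the mouse had been stimulated through CD3 and CD28, and the comparison asks what an inhibitor of the p38 family kinase MAPK13 does to their transcripts. The treated group received MAPK13-IN-1, an inhibitor of that kinase, and the control group its solvent DMSO, with 3 libraries in each group. Replicates 2 and 3 of both groups are labelled WT with an addition after day 1, and the labels of the treated ones give 17.1 µM inhibitor. The other pair carries no replicate number in its titles and is called replicate 1 here as a name only. Its labels give neither genotype, dose nor day, and the series text describes 72 h of stimulation in the presence of inhibitor or DMSO. The study obtained C57BL/6J and BALB/c mice, and which strain gave these cells is not given in the sources used here. The CD4+ cells had been taken from spleen with a kit for mouse CD4 T cells and naive cells were plated on bound anti-CD3 with soluble anti-CD28, according to the study's methods. A stranded mRNA kit and DNBSEQ-T7 sequencing were used for replicate 1, whereas replicates 2 and 3 were made with poly-T beads, so the libraries fall into 2 batches, each holding both groups.

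For replicates 2 and 3 the deposited values are reads counted per gene, with totals of 26874805 and 28487403 in the DMSO libraries and of 33854760 and 32617702 in the MAPK13-IN-1 libraries. They are given below as CPM, counts relative to library size after TMM scaling, a correction for library composition. For replicate 1 the deposited values are read as FPKM, fragments scaled for transcript length and depth. That unit was inferred from the numbers, and the depth is unknown. Per gene, replicates of 1 group differed by more than counting noise, with a mean chi-square of 3.08 in DMSO and of 9.60 with MAPK13-IN-1, so none was treated as a copy. Nothing states that replicates came from separate cultures or animals, so the p-values below measure only the spread between these samples, which may be technical.

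Within the count libraries, the AP-1 genes did not move as a block with MAPK13-IN-1. *Jun* and *Fosl2* were higher, *Junb*, *Jund* and *Batf3* were lower, *Fosb* was somewhat higher, and *Fos*, *Fosl1* and *Batf* did not pass the test. Of the 9 genes, 3 fell and 3 rose at an adjusted p under 0.05 by the edgeR quasi-likelihood test and Benjamini-Hochberg adjustment, 2 libraries against 2. Over all 16269 genes tested, 32.3% were lower and 31.5% were higher by the same rule, so a count of 3 in each direction is close to the background. Adding a change of more than 2-fold left 2 genes lower, *Jund* and *Batf3*, beside 10.4% of all genes, and 0 higher, beside 13.0% of all genes. The count of 0 was also 0 at an unadjusted p under 0.05 and with DESeq2, and it became 1, *Jun*, when libraries were scaled by their totals alone. The median log2 fold change was 0.013 over the 9 genes and 0.012 over all genes tested. In bulk samples such as these, fewer cells of a type and less RNA per cell cannot be told apart.

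In the Jun family, the obligate core of AP-1 dimers, *Jun* rose while *Junb* and *Jund* fell. *Jun* encodes c-Jun, a strong activator whose activity is raised when JNK phosphorylates it. It was counted 3721 and 4070 times in the DMSO libraries and 10317 and 9410 times in the MAPK13-IN-1 libraries, or 144 and 150 CPM against 291 and 278 CPM. Both inhibitor libraries lay above both DMSO libraries, and the gap between groups was far wider than the gap within either. The means were 147 ± 3.79 and 284 ± 9.18 CPM (SD, n = 2), a log2 fold change of 0.95 ± 0.056 (SE; 95% interval 0.83 to 1.08; adjusted p = 3.46e-07, edgeR quasi-likelihood test, Benjamini-Hochberg adjustment). *Jun* was 1.93-fold higher, and 2444 of the 16269 genes had a log2 fold change at least as high.

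*Junb* encodes JunB, a weaker activator that opposes c-Jun at some promoters and is required for Th17 cells. Its counts were 27585 and 27220 in DMSO and 19922 and 21109 with MAPK13-IN-1, which scale to 1070 and 1001 CPM against 561 and 623 CPM. The DMSO libraries were both higher, and the groups did not overlap. Means were 1035 ± 48.7 and 592 ± 43.6 CPM (SD, n = 2), and the log2 fold change was -0.81 ± 0.061 (SE; 95% interval -0.94 to -0.67; adjusted p = 1.58e-06, edgeR quasi-likelihood test, Benjamini-Hochberg adjustment). *Jund* encodes JunD, the member of the family that is made in most resting cells. It was counted 12150 and 12938 times in DMSO and 5382 and 6135 times with the inhibitor, or 471 and 476 CPM against 152 and 181 CPM. The DMSO libraries were nearly equal, and the inhibitor libraries were both far below them and further apart from each other. From 473 ± 3.22 to 166 ± 20.8 CPM (SD, n = 2), *Jund* was 2.85-fold lower (log2 fold change -1.51 ± 0.077, SE; 95% interval -1.68 to -1.34; adjusted p = 1.49e-07, edgeR quasi-likelihood test, Benjamini-Hochberg adjustment). Only 801 of the 16269 genes had a log2 fold change this low or lower.

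**Figure D1:**
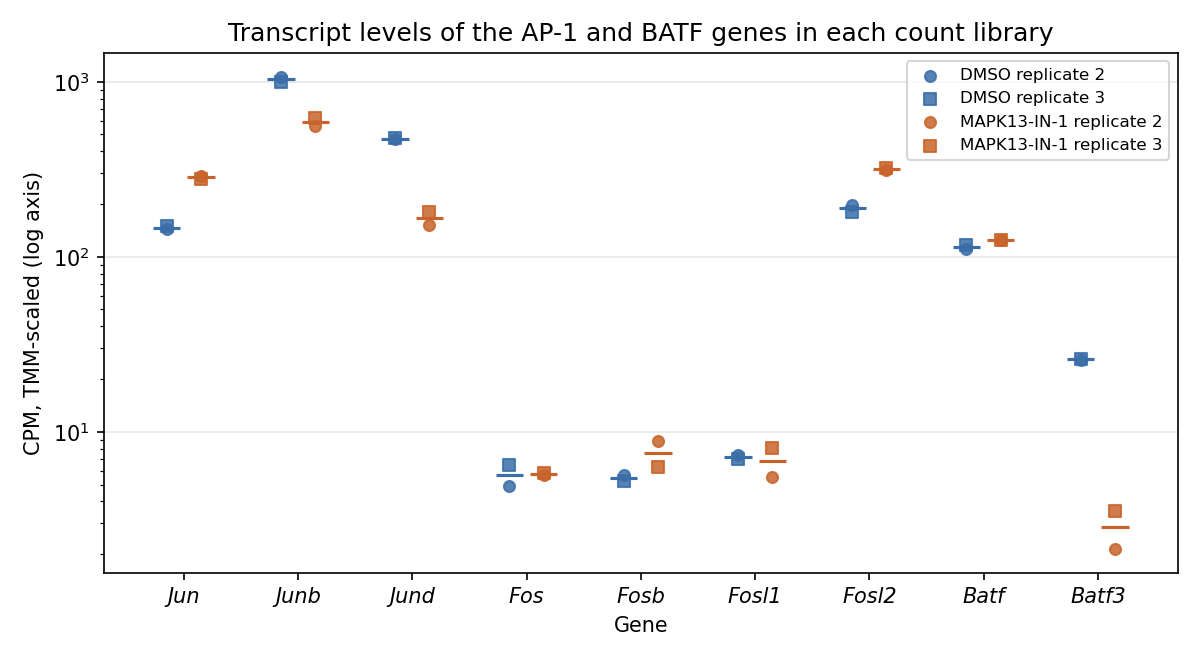
TMM-scaled CPM (log axis) of the 9 AP-1 and BATF genes in the 4 count libraries, with circles for replicate 2, squares for replicate 3 and bars for group means (n = 2). *Junb*, *Jund* and *Batf3* sit lower with MAPK13-IN-1, *Jun* and *Fosl2* sit higher, and *Fos* and *Fosl1* overlap between the groups.

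The Fos family gave 1 clear change, in the member that was also the most counted. *Fosl2* encodes Fra-2, a Fos relative without the strong activation domain of c-Fos. Its counts were 5097 and 4926 in DMSO and 11152 and 10910 with MAPK13-IN-1, or 198 and 181 CPM against 314 and 322 CPM. Both inhibitor libraries were above both DMSO libraries, and the groups did not overlap. The means of 189 ± 11.7 and 318 ± 5.49 CPM (SD, n = 2) gave a log2 fold change of 0.75 ± 0.059 (SE; 95% interval 0.62 to 0.88; adjusted p = 2.24e-06, edgeR quasi-likelihood test, Benjamini-Hochberg adjustment), which is a 1.68-fold higher level.

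*Fosb* encodes FosB, an immediate early protein, and it was scarce, at 146 and 142 counts in DMSO and 313 and 212 counts with MAPK13-IN-1. As CPM these are 5.66 and 5.22 against 8.82 and 6.26. The inhibitor libraries were both higher, but replicate 2 stood well above replicate 3, which lay close to the DMSO libraries. The log2 fold change of 0.47 ± 0.19 (SE; 95% interval 0.058 to 0.89) passed the threshold narrowly (adjusted p = 0.0462, edgeR quasi-likelihood test, Benjamini-Hochberg adjustment). Without MAPK13-IN-1 replicate 2 it was 0.20 (adjusted p = 0.344), without DMSO replicate 2 it was 0.52 (adjusted p = 0.0513) and without DMSO replicate 3 it was 0.41 (adjusted p = 0.139), all by the edgeR quasi-likelihood test and Benjamini-Hochberg adjustment. The DESeq2 Wald test with the same adjustment gave 0.48 (adjusted p = 0.151), so the rise of *Fosb* rests on single libraries and on the choice of test. Over all settings tried, its adjusted p ranged from 8.13e-05 to 0.344 by edgeR's quasi-likelihood test or DESeq2, both with Benjamini-Hochberg adjustment.

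*Fos* encodes c-Fos, the prototype immediate early partner of c-Jun, which is transcribed within minutes of stimulation and then shut off. It had 127 and 175 counts in DMSO and 202 and 196 with MAPK13-IN-1, or 4.93 and 6.43 CPM against 5.69 and 5.78 CPM. Both inhibitor libraries lay between the DMSO libraries, so the groups overlapped. The log2 fold change was 0.013 with a 95% interval of -0.37 to 0.40, and it was -0.18 without DMSO replicate 2. *Fosl1* encodes Fra-1, a Fos relative induced later by AP-1 itself, and was counted 190 and 191 times in DMSO and 197 and 274 times with MAPK13-IN-1, or 7.37 and 7.02 CPM against 5.55 and 8.09 CPM. The inhibitor libraries lay on either side of the DMSO pair. *Fosl1* had a log2 fold change of -0.079 with a 95% interval of -0.49 to 0.33. The value was 0.17 (adjusted p = 0.378) without MAPK13-IN-1 replicate 2 and -0.38 (adjusted p = 0.0453) without MAPK13-IN-1 replicate 3, by the edgeR quasi-likelihood test and Benjamini-Hochberg adjustment, so no direction can be given. Its adjusted p ranged from 0.0453 to 0.879 over the settings tried with edgeR's quasi-likelihood test or DESeq2 and Benjamini-Hochberg adjustment.

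The BATF family split, with *Batf* nearly level and *Batf3* showing the largest change among the 9. *Batf3*, whose protein pairs with Jun proteins and is best known for the development of cross-presenting dendritic cells, was counted 664 and 710 times in DMSO and 76 and 120 times with MAPK13-IN-1. As CPM these are 25.8 and 26.1 against 2.14 and 3.54. The DMSO libraries were nearly the same and both inhibitor libraries were far lower. From 25.9 ± 0.253 to 2.84 ± 0.990 CPM (SD, n = 2), the level was 9.15-fold lower (log2 fold change -3.19 ± 0.18, SE; 95% interval -3.59 to -2.79; adjusted p = 2.63e-07, edgeR quasi-likelihood test, Benjamini-Hochberg adjustment). Of the 16269 genes tested, 97 had a log2 fold change as low or lower.

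*Batf* encodes BATF, the partner of JunB and IRF4 in differentiating helper T cells, and had 2858 and 3194 counts in DMSO and 4434 and 4231 with MAPK13-IN-1. These scale to 111 and 117 CPM against 125 and 125 CPM. Both inhibitor libraries were slightly above both DMSO libraries, by about as much as the DMSO libraries differed from each other. The log2 fold change was 0.13 with a 95% interval of -0.0039 to 0.26 and an adjusted p of 0.0819 from the edgeR quasi-likelihood test and Benjamini-Hochberg adjustment. It passed without MAPK13-IN-1 replicate 2 (0.13, adjusted p = 0.0340), without MAPK13-IN-1 replicate 3 (0.12, adjusted p = 0.0405), with at least 10 counts required in every library (0.17, adjusted p = 0.0247) and with libraries scaled by their totals (0.26, adjusted p = 0.00347), in the same edgeR quasi-likelihood test, Benjamini-Hochberg adjustment. Over all settings its adjusted p ranged from 0.00347 to 0.581 by edgeR's quasi-likelihood test or DESeq2 with Benjamini-Hochberg adjustment, and the estimate stayed between 0.076 and 0.26. Scaling by library totals moved the median log2 fold change of all genes by 0.13, as much as the estimate for *Batf* itself. Under that scaling 41.1% of the genes called were lower, against 50.6% with TMM.

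**Figure D2:**
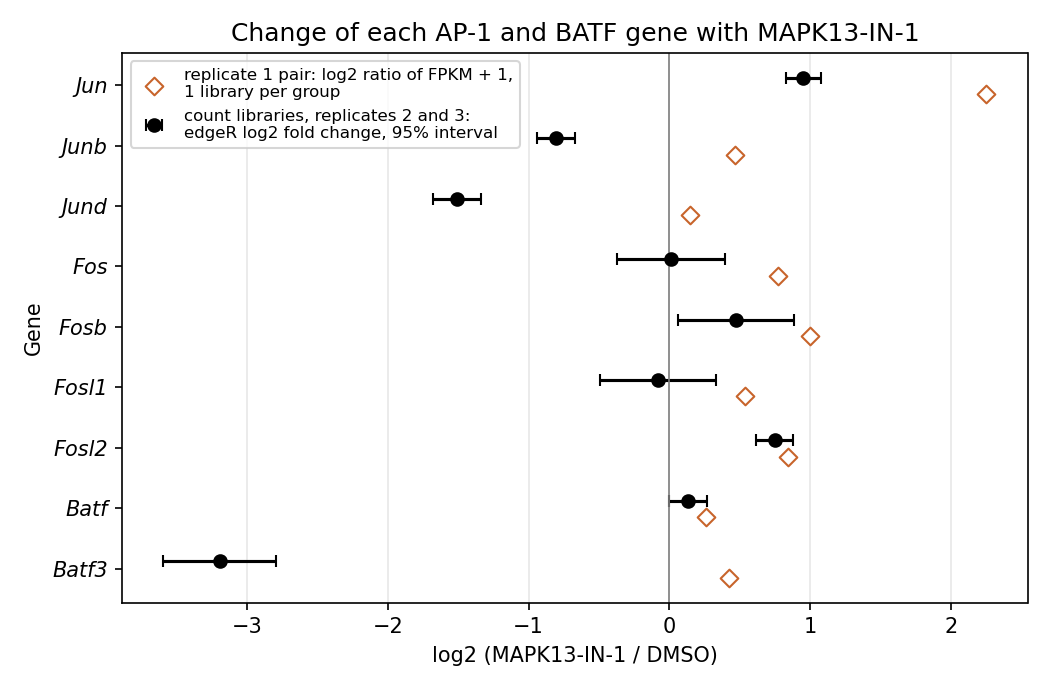
Log2 change with MAPK13-IN-1 of each AP-1 and BATF gene, with filled circles and bars for the edgeR log2 fold change and its 95% interval in the count libraries (2 against 2) and open diamonds for the log2 ratio of FPKM + 1 in the replicate 1 pair (1 library per group, no error). *Junb*, *Jund* and *Batf3* lie left of 0 in the count libraries and right of 0 in the replicate 1 pair, and with library-total scaling the near-0 estimate for *Fosl1* changes sign.

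In the replicate 1 pair, made in the other batch, all 9 genes had the higher value in the MAPK13-IN-1 library. There is 1 library per group here, so no difference has a replicate check, and log2 ratios of FPKM + 1 understate the change of scarce genes. *Jun* was at 8.52 FPKM in DMSO and 44.3 FPKM with the inhibitor, a log2 ratio of 2.25. Among the 10448 genes that reached 1 FPKM in both libraries, 61 had a ratio this high or higher. *Fosl2* was at 14.6 and 26.9 FPKM (log2 ratio 0.84), and *Fosb* at 0.195 and 1.39 FPKM (log2 ratio 1.00, or 2.33 with 0.1 added in place of 1). These 3 genes had the same direction in both batches, though *Fosb* was under 1 FPKM in the DMSO library. The same direction was also the more common case among other genes called higher. Of 2890 such genes at 1 FPKM or more in both libraries of the pair, 799 (27.6%) had the opposite direction. Among genes of the pair at 1 FPKM or more, the median log2 ratio was 0.050, and 54.3% had a ratio above 0.

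The genes that were lower in the count libraries went the other way in this pair. *Junb* was at 220 FPKM in DMSO and 305 FPKM with MAPK13-IN-1 (log2 ratio 0.47), *Batf3* was at 26.6 and 35.9 FPKM (0.42), and *Jund* was at 89.9 and 99.3 FPKM (0.14). Of the 10448 genes at 1 FPKM or more, 1956, 2164 and 4295 had a ratio at least as high as *Junb*, *Batf3* and *Jund*, respectively. The ratio of *Jund* was thus close to the median log2 ratio of 0.050. The fall of these 3 genes was seen in replicates 2 and 3 and not in replicate 1. Opposite directions were not rare among other genes. Of 7234 genes that passed the test in the count libraries and reached 1 FPKM in both libraries of the pair, 2569 (35.5%) had the opposite direction in the pair, and among those called lower it was 1770 of 4344 (40.7%). The genes without a call in the count libraries were also higher in the pair. *Fos* was at 1.47 and 3.22 FPKM (log2 ratio 0.77), *Fosl1* at 2.24 and 3.70 FPKM (0.54) and *Batf* at 119 and 143 FPKM (0.26). A batch effect on these ratios was not tested, since 1 library per group has no spread.

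Comparison of the genes with each other needs a level per length, and CPM was therefore divided by the length of the principal transcript in GENCODE M21. In DMSO the order was *Junb* at 572 ± 26.9, *Jund* at 284 ± 1.93, *Batf* at 120 ± 4.90, *Jun* at 46.1 ± 1.19, *Batf3* at 32.4 ± 0.315, *Fosl2* at 29.0 ± 1.79, *Fosl1* at 3.86 ± 0.131, *Fos* at 2.69 ± 0.506 and *Fosb* at 1.44 ± 0.0824 CPM per kilobase (SD, n = 2). Thus 2 Jun genes and *Batf* dominated, and *Fosl1*, *Fos* and *Fosb* were scarce at this time point. In 0 of the 8 steps of this order did the libraries of neighbouring genes overlap. With MAPK13-IN-1, *Junb* was still first at 327 ± 24.1, followed by *Batf* at 131 ± 0.0496, *Jund* at 99.7 ± 12.5, *Jun* at 89.1 ± 2.88 and *Fosl2* at 48.7 ± 0.839 CPM per kilobase (SD, n = 2). *Fosl1* at 3.66 ± 0.962, *Batf3* at 3.55 ± 1.24, *Fos* at 2.72 ± 0.0311 and *Fosb* at 1.99 ± 0.479 CPM per kilobase (SD, n = 2) came last. Here 3 of the 8 steps overlapped, those from *Jund* to *Jun*, from *Fosl1* to *Batf3* and from *Batf3* to *Fos*. *Batf3* thus moved from the fifth place to the seventh, among genes that are close to the bottom of the range.

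The order depends in part on the length used. With the length of all annotated exons, an alternative chosen after seeing the data, 7 of the 9 genes held their place in DMSO, where *Fosl2* and *Batf3* changed places. With MAPK13-IN-1, 4 of the 9 held theirs, since *Batf* came after *Jund* and *Jun*, and *Fos* passed *Batf3*. *Junb* was first and *Fosb* last under both lengths and in both groups. In the replicate 1 pair the FPKM order began with *Junb*, *Batf* and *Jund*, as in the inhibitor count libraries, and ended with *Fosl1*, *Fos* and *Fosb*, as in the DMSO count libraries, in both libraries of the pair. *Jun* was in the sixth place in its DMSO library and in the fourth place in its MAPK13-IN-1 library.

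Ratios between genes of the same library do not depend on library scaling, and they set the batches side by side. Per length, there were 13.1 and 11.8 *Junb* transcripts for each *Jun* transcript in the DMSO count libraries and 3.40 and 3.95 with MAPK13-IN-1. For replicate 1 the same ratio was 25.9 in DMSO and 6.88 with the inhibitor. The 2 tables were normalized separately, and the lengths behind the FPKM may be others. The balance between *Junb* and *Jun* was lower in each of the 3 inhibitor libraries than in any DMSO library, although *Junb* itself went in opposite directions in the batches. *Jund* to *Jun* was 6.24 and 6.08 in the DMSO count libraries, 0.997 and 1.25 in the inhibitor count libraries, and 10.5 and 2.24 in the DMSO and inhibitor libraries of replicate 1. The levels of *Jund* and *Jun* were thus about equal in the inhibitor count libraries. *Batf* to *Batf3* was 3.61 and 3.77 in the DMSO count libraries and 48.9 and 29.6 with MAPK13-IN-1. That ratio in the replicate 1 pair was 4.50 and 3.98, so the higher ratio with the inhibitor was seen in the count libraries alone.

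Of the summed level per length of all 9 genes, the Jun family made up 83.2% and 82.2% in the DMSO count libraries and 72.2% and 73.7% with MAPK13-IN-1. The Fos family made up 3.44% and 3.33% in DMSO and 8.22% and 7.91% with the inhibitor, and the BATF family 13.4% and 14.4% against 19.6% and 18.4%. The level of the BATF family in the count libraries was nevertheless lower with the inhibitor, 148 and 156 against 133 and 135 CPM per kilobase after TMM scaling. That fall came from *Batf3*, since *Batf* was slightly higher. In the replicate 1 pair the level of the family was higher with the inhibitor, at 146 and 179 FPKM. Its share in the count libraries was higher because the Jun family went from 919 and 885 to 492 and 540 CPM per kilobase. The summed level was 1105 and 1077 CPM per kilobase in DMSO and 682 and 733 with the inhibitor, a difference made mostly by *Junb* and *Jund*. For replicate 1 the Jun family held 66.0% in DMSO and 67.7% with the inhibitor, the Fos family 3.83% and 5.31%, and the BATF family 30.2% in DMSO and less with the inhibitor, while the sums were 483 and 663 FPKM. The share of the Fos family was thus higher with the inhibitor in both batches, and that of the Jun and BATF families was not in the same direction. *Jun* alone took 4.09% and 4.36% in the DMSO count libraries, 13.4% and 11.9% in the inhibitor count libraries, and 1.76% and 6.69% in the replicate 1 pair.

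**Figure D3:**
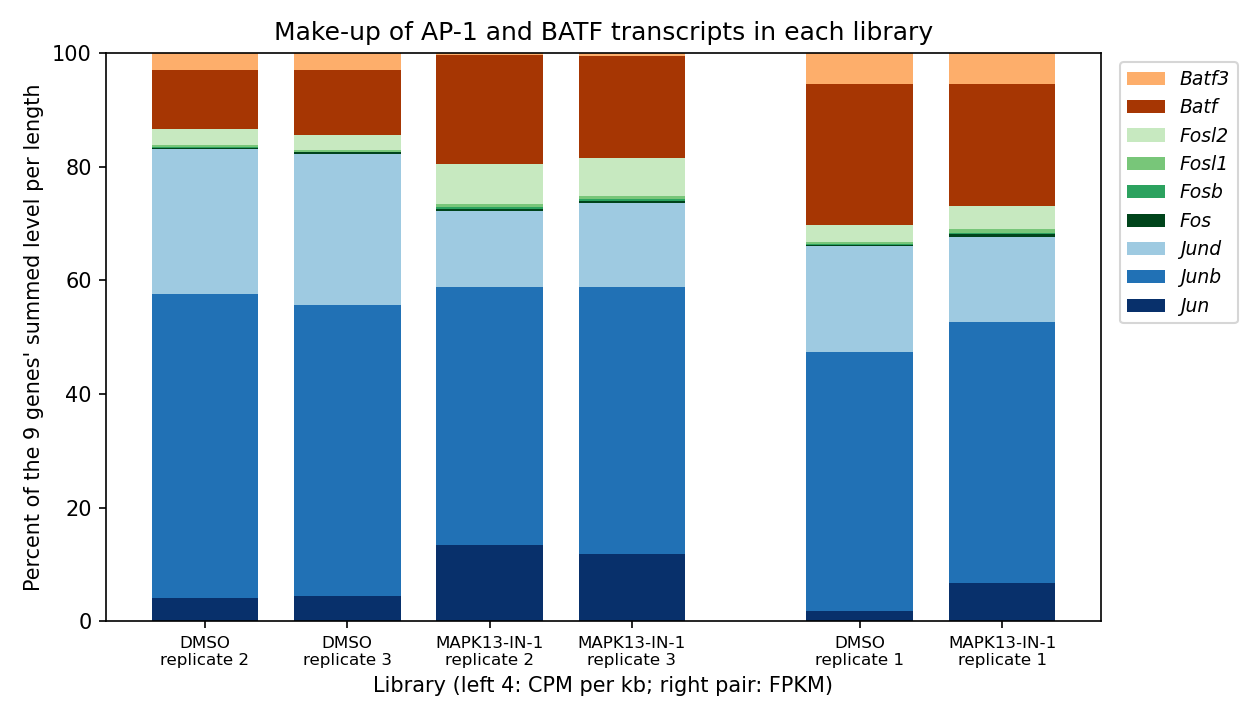
Share of each gene in the summed level per length of the 9 AP-1 and BATF genes, as stacked bars for the 4 count libraries (CPM per kilobase) and, set apart, the replicate 1 pair (FPKM). *Jun* takes 4.09% and 4.36% in the DMSO count libraries and 13.4% and 11.9% with MAPK13-IN-1, and 1.76% and 6.69% in the replicate 1 pair.

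The genes share some features of structure and position that the choice by name did not use. Coordinates are those of GENCODE M21 on the mm10 (GRCm38) assembly. The principal transcript of each Jun gene has 1 exon: *Jun* lies at chr4:95049034-95052222 on the minus strand, *Junb* at chr8:84974484-84978718 on the minus strand and *Jund* at chr8:70698949-70700616 on the plus strand. These genes, whose principal transcripts have no introns, thus include 1 that rose and 2 that fell. The Fos genes have 4 exons each, with *Fos* at chr12:85473890-85477273 (plus), *Fosb* at chr7:19302696-19310051 (minus), *Fosl1* at chr19:5447547-5455946 (plus) and *Fosl2* at chr5:32135801-32157842 (plus). *Batf* at chr12:85686669-85709087 (plus) and *Batf3* at chr1:191097847-191108945 (plus) have 3 exons each. *Fos* and *Batf* lie 209 kb apart on chromosome 12, and neither passed the test.

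Annotated genes on the opposite strand overlap the exons of 4 of the 9 genes, and whether reads were counted by strand is not given in the sources used here, so reads from such pairs cannot be told apart. The antisense gene *Junos* shares 7.28% of the exon bases of *Jun* and had 300 and 312 counts in DMSO and 844 and 673 with MAPK13-IN-1. Its log2 fold change of 0.92 ± 0.12 (SE; adjusted p = 7.17e-05, edgeR quasi-likelihood test, Benjamini-Hochberg adjustment) was close to that of *Jun*, at far fewer counts. *Prdx2* shares 7.52% of the exon bases of *Junb* and had a log2 fold change of -0.0041 (95% interval -0.15 to 0.15). *Ccdc85b* shares 57.2% of those of *Fosl1*, with 657 and 726 counts in DMSO and 845 and 898 with MAPK13-IN-1, more than *Fosl1* itself, so the counts of *Fosl1* are uncertain. *Gm11175* shares 52.6% of those of *Jund*, and no count under that name was used here.

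Promoter sequences, 250 bases before to 50 bases after the start, were matched by symbol for 8 of the 9 genes in the table of RefSeq promoters on GRCm38.p6 used here, in which no row was matched to *Fosl1*. They were searched on both strands for the AP-1 site TGAGTCA or its reverse complement TGACTCA, for the CRE TGACGTCA, for the Jun-type site TGACATCA or its reverse complement TGATGTCA, and for the CArG box bound by SRF. No motif contains another, and 1 match was found, a Jun-type site in the promoter of *Jun*. Of all 32851 promoters in the table, 3.62% hold that site, 5.20% the AP-1 site, 1.79% the CRE and 1.63% a CArG box. The RefSeq starts can differ from those of the GENCODE coordinates above. For *Jund* the window, chr8:70697489-70697788, ends before the start of the gene given above. Those of *Batf3* (chr1:191098164-191098463) and *Fosl2* (chr5:32136222-32136521) begin inside the gene given above. The stretch around the match is shown because *Jun* was higher with the inhibitor in both batches and is a classic target of its own protein. It covers chr4:95052230-95052327 on the minus strand of GRCm38.p6, ends before the start of transcription, and has the matched letters in capitals, the first of them 45 bases before the start.
*Jun* promoter: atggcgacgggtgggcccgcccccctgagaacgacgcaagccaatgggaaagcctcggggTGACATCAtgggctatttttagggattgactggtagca
A match describes letters in this window and shows neither binding nor use of the site in these cells. Sequence outside the windows was not searched, so a promoter without a match may still have such sites further away.

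Genes most like the 2 most counted members were sought by the Euclidean distance between log2(CPM + 1) profiles centred on their mean, over 4 libraries and 9124 other genes with a mean of at least 10 CPM. For *Junb* these were *Nudt1* (distance 0.0277, log2 fold change -0.87), *Tfdp2* (0.0347, -0.81) and *Pole4* (0.0366, -0.84). *Jund* was followed most closely by *Il12rb1* (0.0326, -1.54), *Fam136a* (0.0413, -1.58) and *Ccdc28a* (0.0450, -1.60). Over 4 libraries in 2 groups such distances mainly rank genes by their change between the groups. With the inhibitor, *Nudt1* went from 20.4 to 14.1 FPKM, *Tfdp2* from 8.60 to 5.62, *Pole4* from 39.2 to 34.4 and *Il12rb1* from 143 to 93.1 FPKM in the replicate 1 pair, and *Fam136a*, at 16.6 FPKM in DMSO, was lower too, whereas *Ccdc28a* went from 9.85 to 11.4 FPKM, higher as were *Junb* and *Jund*.

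The lists below are read beside the 32.3% of all genes tested that were lower and the 31.5% that were higher. Other genes of the AP-1 superfamily leaned upward in the count libraries. Of 13 listed bZIP genes 12 were tested, with 8 higher, 2 lower and 2 without a call, and a median log2 fold change of 0.44 beside 0.012 for all genes tested. The 2 that fell were *Maf*, an activator of the *Il4* and *Il10* genes, from 38.0 ± 2.25 to 7.85 ± 0.0893 CPM (SD, n = 2; log2 fold change -2.28 ± 0.10, SE), and *Atf3*, a stress-induced partner of Jun proteins, from 109 ± 2.46 to 51.8 ± 2.30 CPM (-1.07 ± 0.067). Among those that rose were *Mafk*, a small Maf protein without an activation domain (0.82 ± 0.075), and *Atf7*, a relative of ATF2 (0.62 ± 0.073). *Creb5* had 0 counts in both DMSO libraries, which allows up to 0.116 CPM, and 4 and 2 counts with the inhibitor. The replicate 1 pair gave *Maf* at 27.5 and 24.2 FPKM, *Mafk* at 10.1 and 13.4, and *Atf7* at 8.81 and 8.68 and *Atf3* at 34.1 and 61.3 FPKM, both against their direction in the counts; 6 of the 10 listed genes at 1 FPKM or more were higher there, with a median log2 ratio of 0.10.

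Among 8 partners that bind beside AP-1 or BATF at composite elements, 5 were lower and 2 were higher, with a median log2 fold change of -0.21, while with library-total scaling 3 were lower and the median was -0.085. *Irf4*, the partner of BATF and JunB, was at 869 and 874 CPM in DMSO and at 528 and 580 CPM with MAPK13-IN-1. Its log2 fold change of -0.65 ± 0.055 (SE; adjusted p = 3.45e-06, edgeR quasi-likelihood test, Benjamini-Hochberg adjustment) went with a lower value in the replicate 1 pair too, 287 against 176 FPKM. *Nfatc2*, the NFAT protein that is present before stimulation, fell by 1.08 on the log2 scale, from 181 ± 4.90 to 85.9 ± 7.54 CPM (SD, n = 2), and was at 20.4 and 19.3 FPKM in the pair. *Nfatc3* rose (0.49 ± 0.059) and *Nfatc1*, which is induced by NFAT itself, fell slightly (-0.26 ± 0.052). Both went against these directions in the pair, *Nfatc3* at 25.3 and 24.7 FPKM and *Nfatc1* at 29.2 and 41.0 FPKM. Of the 8 partners 3 were higher in the pair, with a median log2 ratio of -0.036.

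The kinases that activate AP-1 and the factors bound at Fos and Jun promoters did not stand out: 9 of 23 were higher, 7 lower and 7 without a call, shares near the 31.5% and 32.3% of all genes tested, with a median log2 fold change of -0.074, which became 0.051 with library-total scaling, -0.029 with at least 10 counts in every library, -0.034 without MAPK13-IN-1 replicate 2 and -0.12 without DMSO replicate 3, so the median has no firm direction. The pair had 11 of 21 such genes higher, with a median log2 ratio of 0.011. *Map2k6*, a kinase that activates p38 proteins, was counted 607 and 632 times in DMSO and 3859 and 3361 times with the inhibitor (log2 fold change 2.15 ± 0.077, SE), but was at 2.90 and 1.25 FPKM in the replicate 1 pair. *Prkcq*, a protein kinase C that acts below the antigen receptor in T cells, fell from 67.5 ± 2.64 to 29.3 ± 1.20 CPM (SD, n = 2; -1.20 ± 0.077, SE). *Map2k2*, a direct activator of ERK, also fell (-0.92 ± 0.068). In the pair *Prkcq* was at 38.0 and 24.3 FPKM and *Map2k2* at 38.9 and 42.6 FPKM. *Mapk13*, the target of the inhibitor and named here after its values were seen, was scarce, at 79 and 74 counts in DMSO and 21 and 51 with the inhibitor (-1.47 ± 0.36). It was at 0.191 and 3.28 FPKM in the replicate 1 pair, the opposite direction.

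Of 8 genes for the turnover of Jun and Fos proteins, 5 were lower by edgeR, 0 were higher and 3 had no call, with a median log2 fold change of -0.25, or -0.12 with library-total scaling. The replicate 1 pair had 5 of the 8 higher, with a median log2 ratio of 0.051. The number higher was also 0 at an unadjusted p under 0.05 and with DESeq2, and the number lower was 3 with library-total scaling or without DMSO replicate 3. *Ndfip1*, an adaptor that activates the JunB ligase ITCH, went from 329 ± 5.07 to 202 ± 0.701 CPM (SD, n = 2; log2 fold change -0.71 ± 0.052, SE), while *Itch* itself, named after its values were seen, had a log2 fold change of -0.040 with a 95% interval of -0.19 to 0.11. *Cops5*, which encodes a co-activator of c-Jun, fell too (-0.24 ± 0.068). The pair gave *Ndfip1* at 278 and 238 FPKM and *Cops5* at 48.7 and 46.9 FPKM. *Cops5* did not pass when libraries were scaled by totals (-0.11, adjusted p = 0.173) or without DMSO replicate 3 (-0.21, adjusted p = 0.137), by the edgeR quasi-likelihood test and Benjamini-Hochberg adjustment. Its adjusted p over the settings tried ranged from 0.000779 to 0.173 with edgeR's quasi-likelihood test or DESeq2 and Benjamini-Hochberg adjustment.

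Other immediate early genes, which share with *Fos* and *Jun* a rapid response to stimulation, were mostly lower in the count libraries, 14 of 17, with 2 higher and a median log2 fold change of -0.40, while library-total scaling left 9 lower and a median of -0.27. *Egr1* was counted 8792 and 9039 times in DMSO and 1769 and 1597 times with MAPK13-IN-1, a log2 fold change of -2.80 ± 0.061 (SE; adjusted p = 1.61e-09, edgeR quasi-likelihood test, Benjamini-Hochberg adjustment). *Egr3* (-2.31 ± 0.11) and *Ier2* (-1.12 ± 0.060) fell as well, and *Ier3*, a survival gene, rose from 17.4 ± 1.35 to 90.5 ± 1.19 CPM (SD, n = 2; 2.38 ± 0.082, SE). Of these 17 genes, 13 had the higher value with the inhibitor in the replicate 1 pair, with a median log2 ratio of 0.46. *Egr1* was lower there too, at 56.1 and 37.3 FPKM, as was *Ier2*, at 111 and 55.6 FPKM, and *Ier3* was higher, at 5.06 and 15.1 FPKM, whereas *Egr3* went against its direction in the counts, at 9.63 and 12.2 FPKM.

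Genes known as targets of AP-1 with NFAT in T cells were lower in the count libraries in 11 of 14 cases and higher in 0 by edgeR, with a median log2 fold change of -1.15. The number higher was also 0 at an unadjusted p under 0.05 and with DESeq2. *Il4*, the lead cytokine of Th2 cells, had 240 and 229 counts in DMSO and 11 and 12 with MAPK13-IN-1 (log2 fold change -4.72 ± 0.24, SE), and *Il13*, its neighbour, had 735 and 869 against 36 and 49 counts (-4.62 ± 0.17). *Lta*, which encodes lymphotoxin alpha, fell from 459 ± 10.9 to 73.3 ± 5.82 CPM (SD, n = 2; -2.65 ± 0.067, SE), and *Il2ra*, the high-affinity chain of the interleukin 2 receptor, from 963 ± 0.253 to 399 ± 43.8 CPM (-1.27 ± 0.069). Of the 13 such genes with at least 1 FPKM in the replicate 1 pair, 10 were higher with the inhibitor, with a median log2 ratio of 0.83, *Il13* among them at 16.5 and 39.9 FPKM, though *Il4* was at 28.9 and 13.1 FPKM, *Lta* at 238 and 202 FPKM and *Il2ra* at 384 and 237 FPKM. Of 12 targets of BATF with IRF4, 7 were lower, 2 higher and 3 without a call in the count libraries, with a median log2 fold change of -0.75, or -0.37 with at least 10 counts required in every library. In the pair 6 of the 8 of them at 1 FPKM or more were higher, with a median log2 ratio of 0.70. The number higher was 1 with DESeq2 and without DMSO replicate 2, DMSO replicate 3 or MAPK13-IN-1 replicate 2. Besides *Maf*, which is also on the bZIP list, *Ctla4* (-1.62 ± 0.088), an inhibitory receptor, *Gata3* (-1.09 ± 0.080), the Th2 master factor, and *Il22* (-2.98 ± 0.27) fell. *Il22* was at 2.01 and 56.1 FPKM and *Ctla4* at 84.9 and 112 FPKM in the pair, against that direction, and *Gata3* was at 48.1 and 33.8 FPKM. The part of *Junb*, *Jund*, *Batf3* or *Irf4* in the levels of these genes was not tested.

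Markers of cell types were counted beside these results, because AP-1 and BATF genes are transcribed in many blood cells. The 7 CD4 T cell markers were all present, with summed levels of 1664 and 1695 CPM in DMSO and 903 and 1025 CPM with MAPK13-IN-1. Of these 6 fell, among them *Lck* (log2 fold change -1.20 ± 0.061, SE), *Cd3g* (-1.56 ± 0.089), *Cd5* (-1.29 ± 0.10), the most counted, and *Cd3e* (-1.37 ± 0.11). *Cd4*, named after its values were seen, had a log2 fold change of -0.00064 with a 95% interval of -0.12 to 0.12. The 8 B cell markers were also abundant, with sums of 1099 and 1077 CPM in DMSO and 1282 and 1302 CPM with the inhibitor. Of them 6 were higher and 1 was lower (2 without MAPK13-IN-1 replicate 3), and *Pax5*, the most counted, rose from 173 ± 6.65 to 267 ± 5.62 CPM (SD, n = 2; 0.62 ± 0.056, SE), with *Blk* (1.07 ± 0.067), *Ms4a1* (0.67 ± 0.063) and *Ebf1* (0.74 ± 0.069). Summed FPKM in the replicate 1 pair were 1024 and 934 for the CD4 T cell list and 46.7 and 34.6 for the B cell list, so the batches differed in the balance of these markers. The cells had passed a kit meant to isolate CD4 T cells, and the origin of the B cell transcripts and their part in the levels of the AP-1 genes were not tested.

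Other lists were scarce. Dendritic cell markers, to which *Batf3* has a known tie, summed to 19.2 and 19.5 CPM in DMSO and 59.0 and 49.2 CPM with MAPK13-IN-1, with 4 of 4 tested genes higher and *Zbtb46* the most counted (1.45 ± 0.11, SE). *Flt3* (1.67 ± 0.16), *Itgax* (1.21 ± 0.26) and *Xcr1* (0 and 4 against 27 and 16 counts) rose, and *Cd209a* had 0 counts in all 4 libraries. *Clec9a* had 0, 0, 6 and 0 counts and *Siglech* 0, 0, 6 and 2. In the count libraries these markers were higher where *Batf3* was lower, whereas in the replicate 1 pair both were higher with the inhibitor, the markers with sums of 3.36 and 14.6 FPKM (*Zbtb46* 1.94 and 8.75, *Flt3* 1.08 and 4.35). Macrophage and neutrophil markers summed to 3.18 and 2.76 against 13.3 and 9.92 CPM, with 4 of 5 tested genes higher, *Lyz2* leading (2.81 ± 0.33) and *S100a9* at 0 counts in all 4 libraries. *Adgre1* (2.50 ± 0.33), *Cd14* (1.83 ± 0.35) and *Itgam* (1.20 ± 0.26) rose with it, and the pair had sums of 0.709 and 1.56 FPKM. Erythroid markers summed to 7.02 and 6.40 against 72.5 and 52.1 CPM, with 4 of 5 higher and *Hbb-bs* leading (3.80 ± 0.19), beside *Hba-a1* (4.15 ± 0.24), *Hbb-bt* (3.48 ± 0.26) and *Alas2* (1.48 ± 0.32), and to 0.879 and 1.52 FPKM in the pair.

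CD8 T and NK markers summed to 13.5 and 13.5 against 7.61 and 10.2 CPM, with 2 of 4 lower, *Cd8a* (-1.41 ± 0.30) and *Cd8b1* (-0.60 ± 0.17), the most counted, and *Ncr1* at 0, 0, 6 and 0 counts. The replicate 1 pair went the other way, with sums of 4.35 and 13.5 FPKM and *Cd8b1* at 3.36 and 7.84 FPKM. Without MAPK13-IN-1 replicate 2 the log2 fold change of *Cd8b1* was -0.38. With DESeq2 its adjusted p was 0.0513 after Benjamini-Hochberg adjustment, beside a range of 2.30e-06 to 0.0513 over all settings with DESeq2 or edgeR's quasi-likelihood test and the same adjustment. Basophil and mast cell markers stayed at or under 1.09 CPM in sum, with *Mcpt8* and *Fcer1a* at 0 counts in all 4 libraries and *Ms4a2* at 2 and 6 against 28 and 34 counts, the 1 gene called (2.54 ± 0.54), which goes untested when at least 10 counts are required in every library. The pair had sums of 0.0319 and 0 FPKM for them, and of 0.153 and 0.573 FPKM for the fibroblast list. Fibroblast markers summed to 3.57 and 4.67 against 3.47 and 4.31 CPM, with *Col1a1* leading, *Col3a1* at 0 counts in all 4 libraries and *Pdgfrb*, at 51 and 77 against 41 and 58 counts, the 1 gene called (log2 fold change -0.75 ± 0.30, SE). *Pdgfrb* was not called without DMSO replicate 3 (-0.48), without MAPK13-IN-1 replicate 2 (-0.49), with library-total scaling (-0.63) or with DESeq2 (-0.74). What these transcripts contribute to the AP-1 and BATF levels was not tested.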

How the data were processed

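Mouse CD4+ T cell RNA was sequenced in 6 libraries, 3 per group, and samples were grouped by their labels. For replicates 2 and 3 the deposited table holds raw read counts of 35602 genes, and all of its columns were used. The tables the authors deposited for replicate 1 hold values of 34714 genes, read here as FPKM. That unit was inferred: the values are not whole, sum to 405150 and 390729, and relative to CPM fall with transcript length (slope -0.87 on log2 scales over 7511 genes). The submitters' processing notes name fastp 0.21.0, HISAT2 2.1.0, StringTie 2.1.5 and DESeq2 1.30.1 for replicates 2 and 3, FastQC and HISAT2 for replicate 1, and the mm10 (GRCm38) build. The annotation and the use of strand in counting are not given in the sources used here.

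Counts were compared in R 4.3.3 with edgeR 4.0.16 (filterByExpr with a minimum count of 10 and a minimum total of 15, TMM, quasi-likelihood test, two-sided, no covariate), with Benjamini-Hochberg adjustment over all 16269 genes tested. The 95% intervals use the standard error and degrees of freedom of that fit. The TMM factors were 0.960 and 0.955 in DMSO and 1.05 and 1.04 with the inhibitor. No test used the FPKM pair, whose log2 ratios have 1 added to each value. The functions were tested on simulated data. A count of 0 allows up to 3 counts, for counting error only. Levels per length use the longest principal transcript (APPRIS) of GENCODE M21, and promoters come from RefSeq. The alternatives were RLE factors, library totals, no filter, at least 10 counts in every library, a replicate block, leaving out each library, DESeq2 1.42.0, 0.1 added to FPKM and a minimum of 1 FPKM. Tables and plots were made with Python 3.11.15, pandas 2.3.3 and matplotlib 3.10.9.

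The 9 genes and all lists were chosen with earlier results of these data known. Named in the text are the 9 genes, up to 4 genes per list by smallest p-value, list genes with 0 counts, the 3 genes with the profile nearest to each of the 2 most counted members, and genes that overlap a member; for any other, the text says that it was picked with its values known.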

Additional observations from a re-analysis of the deposited data

Results flagged for a closer look

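The direction of 3 genes differed between the batches: every count library with MAPK13-IN-1 lay below every DMSO count library, while the replicate 1 pair went the other way. The log2 ratio of FPKM + 1 in that pair was 0.47 for *Junb*, 0.14 for *Jund* and 0.42 for *Batf3*, against log2 fold changes of -0.81, -1.51 and -3.19 in the count libraries. For *Jund* the ratio was close to 0.050, the median of the pair. The difference between the batches was not tested, since the pair has 1 library per group and its depth is unknown. The batches differ in library kit, in what the labels state of the treatment and in the level of B cell markers, and these cannot be told apart.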

How the results depend on the processing

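The calls of *Jun*, *Junb*, *Jund*, *Fosl2* and *Batf3* held in direction and side of the threshold under all 10 alternative fits, with log2 fold changes of 0.91 to 1.08, -0.89 to -0.68, -1.65 to -1.38, 0.68 to 0.87 and -3.60 to -2.87. With library-total scaling 1 of the 9 genes, *Jun*, was higher past 2-fold, in place of 0, the estimate for *Fosl1* turned to 0.045, and the median of the upstream kinase list turned to 0.051; that scaling moves the median of all genes by 0.13. Leaving out each library in turn gave log2 fold changes of -0.18 to 0.21 for *Fos* and of -0.38 to 0.17 for *Fosl1*. The main estimates of both genes were near 0, and the sign was reversed in some of these fits. The value of -0.38 came without MAPK13-IN-1 replicate 3. In such a fit a lone library is assumed to vary like the other group. The cause was not tested. With the replicate block, 6 of the 9 genes and 10645 of all genes were called, against 6 and 10374. Same-numbered libraries did not deviate together (correlation 0.0070 over 9125 genes), so they share only a number. Requiring at least 10 counts in every library left 1264 genes higher past 2-fold, in place of 2113, with fewer genes tested. In the replicate 1 pair 9 of 9 genes were higher, and 8 when at least 1 FPKM was required in both libraries. Depth limits *Fos*, *Fosb* and *Fosl1*, the least counted over the 4 libraries, and 2 libraries per group limit every interval.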
